A study of Mus musculus with 3 samples.

Results

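The 10 genes followed here mark states of tissue macrophages. They were read in 3 single-cell RNA libraries (10x Genomics) of the newborn mouse heart, and are Mrc1, F13a1, Il10, Lyve1, Spp1, Mmp12, Cd207, H2-Aa, H2-Eb1 and Cd74. These 10 of 28001 features were chosen by symbol, on levels and co-detection already seen in these libraries, so what follows describes them and tests nothing. All animals were ICR mice at postnatal day 2 with the genotype HCN4H2BGFP, a nuclear reporter driven by the pacemaker channel gene Hcn4. The GFP-positive library held cells sorted for the reporter from the sinoatrial node region, and the GFP-negative library held cells of that region sorted as lacking it. The third library, titled RA, was unsorted, and its labels also give the sinoatrial node region as its tissue. Each group was 1 library with no replicate, the labels do not say how many animals were pooled, and no p-value can be given between libraries.

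Tissue macrophages live in the heart from before birth, clear dying cells and debris, and can present antigen. In the adult mouse heart, macrophages that make the hyaluronan receptor Lyve1 are known as a resident population low in class II antigens, while other macrophages and dendritic cells are rich in them. A class II molecule pairs an alpha and a beta chain: H2-Aa encodes the alpha chain of I-A, H2-Eb1 the beta chain of I-E, and Cd74 the invariant chain that escorts both through the cell. In mice and humans the transactivator Ciita switches the class II genes on through factors bound to conserved promoter elements, among them the X box and the Y box.

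The 250 bases before the start site are shown for H2-Aa and H2-Eb1, whose ratio varied between barcodes, and for Spp1, one of the other members whose window held a searched motif. They are RefSeq sequences of the build GRCm38.p6, printed 5′ to 3′ on the gene's strand, and that build is not the one of the count files. Capitals mark the Y box GATTGG, the X box core AGCAAC and the PU box GAGGAAGT, each searched on both strands, with no overlap between the marked letters. The PU box was added to the search after the other motifs. H2-Aa lies at chr17:34287824-34288073 on the minus strand, H2-Eb1 at chr17:34305617-34305866 on the plus strand and Spp1 at chr5:104434861-104435110 on the plus strand.
H2-Aa: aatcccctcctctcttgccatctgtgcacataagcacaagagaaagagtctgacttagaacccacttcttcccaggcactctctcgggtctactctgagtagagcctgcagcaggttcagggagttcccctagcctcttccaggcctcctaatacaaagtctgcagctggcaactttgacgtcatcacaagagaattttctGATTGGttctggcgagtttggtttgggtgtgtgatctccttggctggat
H2-Eb1: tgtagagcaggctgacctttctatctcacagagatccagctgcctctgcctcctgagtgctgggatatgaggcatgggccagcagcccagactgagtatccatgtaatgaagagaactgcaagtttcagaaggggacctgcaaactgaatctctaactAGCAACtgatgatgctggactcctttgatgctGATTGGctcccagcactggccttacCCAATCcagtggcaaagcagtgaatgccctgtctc
Spp1: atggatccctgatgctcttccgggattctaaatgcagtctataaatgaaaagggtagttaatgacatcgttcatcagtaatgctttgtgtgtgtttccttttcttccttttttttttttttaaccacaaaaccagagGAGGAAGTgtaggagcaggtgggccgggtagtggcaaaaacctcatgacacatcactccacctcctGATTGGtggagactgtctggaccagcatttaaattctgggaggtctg
H2-Aa had a Y box 49 bases before its start site. H2-Eb1 had a Y box at 60 bases, a second one on the other strand at 35 bases, and the X box core at 92 bases. Spp1 had a Y box at 47 and a PU box at 113 bases, and a second Spp1 entry of the table, not shown, had the X box core on the other strand at 129 bases. Mmp12, not shown, had the X box core at 105 and 36 bases and a PU box on the other strand at 88 bases. Among all 32851 promoters of the table, 14.6% held the Y box letters, 12.2% the X box core, 1.96% both and 2.44% the PU box. An entry was found for 7 of the 10 genes, and Il10, Lyve1 and Cd74 are named only. Only exact letters were searched, so a window without a mark, such as H2-Aa for the X box, can still hold a variant of the element. A match of letters is a description and shows no binding.

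Macrophages were barcodes with at least 20 UMIs (unique transcript counts) over the complement genes C1qa, C1qb and C1qc. They numbered 22 of 3289 kept barcodes in the GFP-positive library, 105 of 3032 in the GFP-negative library and 101 of 1289 in the RA library. The gate had a clear gap around it: 3, 2 and 1 barcodes held 10 to 19 C1q UMIs and 1, 2 and 2 held 20 to 29, for GFP-positive, GFP-negative and RA. The median macrophage held 14255, 9028 and 9713 UMIs in the same order. Csf1r, the receptor that macrophages need to survive, was read in 100%, 99.0% and 99.0% of them, and Adgre1, which encodes F4/80, in 72.7%, 88.6% and 87.1%. The chemokine receptor gene Cx3cr1 was read in 13.6% of GFP-positive macrophages, against 86.7% in GFP-negative and 87.1% in RA macrophages. Aif1, which encodes the macrophage protein IBA1, was read in 45.5% of GFP-positive macrophages, against 97.1% and 99.0% in the other two. The libraries held 50416748, 38204709 and 19975326 UMIs, and 8 to 19 barcode sequences were shared by a pair of libraries, none of them a macrophage in both.

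Barcodes that carried red cell transcripts stood apart in RA. Markers of erythroid cells made up over 1% of the UMIs in 0 GFP-positive, 2 GFP-negative and 14 RA macrophages, and the 14 RA barcodes held 22.7% of all RA macrophage UMIs. Without these barcodes 87 RA macrophages were left, and values without them are given beside the results they change most. Over 1% of markers of endothelial, fibroblast, mural, cardiomyocyte, epicardial or glial cells was found in 0 GFP-positive, 4 GFP-negative and 3 RA macrophages. At least 3 UMIs of monocyte markers were found in 9, 12 and 25 macrophages in the same order, and of dendritic markers in 0, 2 and 1. For B markers these counts were 0, 6 and 6, and for neutrophil markers 2, 6 and 5.

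Across classes of at least 2 barcodes, every gene that was read had its highest level in macrophages or other leukocytes, except Lyve1 in the GFP-positive library. Levels are UMIs scaled to a common total (CPM), and the other classes were gated on marker genes. In the GFP-positive library Lyve1 stood at 389 CPM in 185 lymphatic endothelial-like barcodes, 94.5 CPM in 850 endocardial-like barcodes and 65.1 CPM in the macrophages. Lyve1 also marks lymphatic vessels. In the GFP-negative library the endocardial-like barcodes had 84.2 CPM of Lyve1 and the macrophages 276 CPM, and in RA they had 57.2 and 124 CPM. Class II transcripts of the GFP-positive library also lay outside the leukocytes. H2-Aa was at 108 CPM in 28 fibroblast-like barcodes, where 6 barcodes held 36 UMIs and 1 of them 21. It was at 42.3 CPM in the macrophages, where all 13 UMIs lay in 1 barcode.

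**Figure D1:**
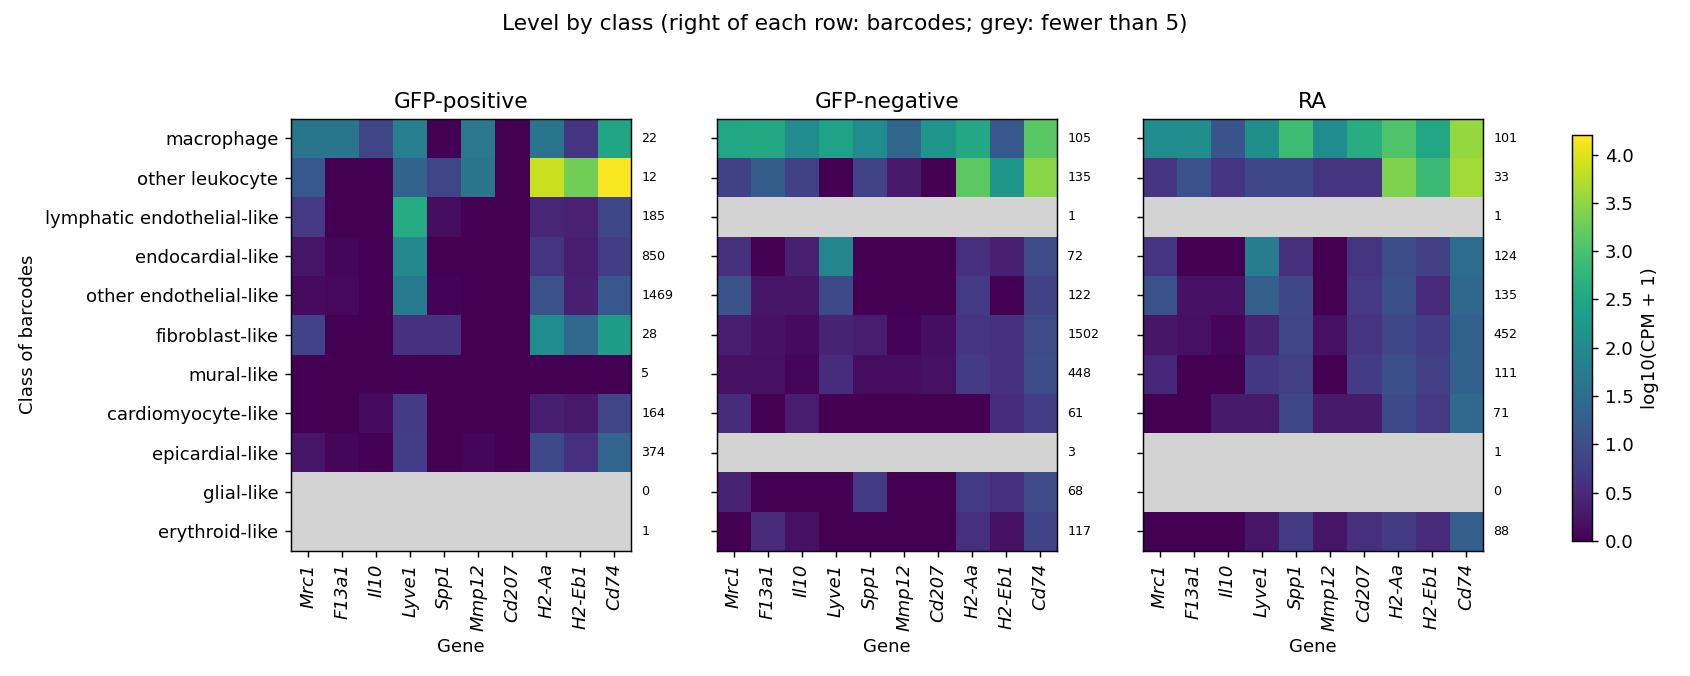
Level of each gene, as log10(CPM + 1) by colour, in classes of barcodes (rows) of the GFP-positive, GFP-negative and RA libraries (panels). Bright cells gather in the macrophage and other leukocyte rows, and the Lyve1 column also lights up in the endothelial and endocardial rows, up to 389 CPM in GFP-positive lymphatic endothelial-like barcodes.

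C1q UMIs outside the leukocytes differed between libraries. They were taken as a measure of free RNA in the droplets, and doublets as their source were not tested. Fibroblast-like barcodes, which should lack C1q, held C1q UMIs in 7.14% of 28 GFP-positive, 25.2% of 1502 GFP-negative and 62.2% of 452 RA barcodes. Their median depths were 12057, 11409 and 16020.5 UMIs. In RA the fibroblast-like level was 0.578% of the macrophage level for C1q, 0.629% for H2-Aa, 0.563% for Cd74 and 0.820% for Cd207. A UMI of Spp1 was read in 9.96% of RA fibroblast-like barcodes and in 10.9% of RA macrophages, whose depth was lower, so the share of macrophages with Spp1 is not read as a share of cells that express it. The share of GFP-negative macrophages with H2-Eb1, 5.71%, stood beside 3.40% of fibroblast-like barcodes, whose H2-Eb1 level was 23.7% of that in the macrophages.

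The resident-state genes Mrc1, F13a1 and Lyve1 had their highest levels in GFP-negative macrophages. Other genes of that state are given below, and some of them were highest in GFP-positive. Mrc1, the mannose receptor that takes up glycoproteins, was at 42.3 CPM (95% counting interval 22.5 to 72.4) in GFP-positive, 327 (293 to 364) in GFP-negative and 107 (89.2 to 128) in RA macrophages. It was read in 6 of 22, 66 of 105 and 46 of 101 macrophages. The GFP-negative interval lay above the other two, and the RA interval lay above that of GFP-positive. F13a1, the catalytic subunit of clotting factor XIII, was at 42.3, 351 and 112 CPM, and was read in 4, 53 and 23 macrophages in the same order. Lyve1 was at 65.1 (39.8 to 101), 276 (245 to 310) and 124 (105 to 146) CPM, and was read in 5, 31 and 20 macrophages. The GFP-negative level was 3.04-fold that of RA for Mrc1, 3.14-fold for F13a1 and 2.23-fold for Lyve1. Without barcodes over 1% erythroid markers the log2 ratio of Lyve1 was 0.74, under 2-fold, and those of Mrc1 and F13a1 were 1.25 and 1.31. Intervals here and below cover counting error only, which measures neither the spread between barcodes nor that between animals.

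Il10, the cytokine that damps inflammation, had its highest level in GFP-negative macrophages, where few barcodes carried most of it. It was at 6.51 CPM (0.789 to 23.5) in GFP-positive, 105 (85.9 to 126) in GFP-negative and 11.5 (6.10 to 19.6) in RA macrophages. The 108 GFP-negative UMIs came from 19 barcodes, of which the highest held 29 and 23. The 13 RA UMIs came from 4 barcodes, and 9 of them lay in 1 barcode that also held 24 UMIs of Mmp12, 107 of the chemokine Cxcl1 and 2.20% erythroid UMIs. The log2 ratio of GFP-negative over RA was 3.15 (2.36 to 4.15). It was 4.38 without the erythroid-marked barcodes and 4.64 without the top 2 barcodes of each library, so its size depends on few barcodes.

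Spp1, Mmp12 and Cd207 were higher in RA than in GFP-negative macrophages. Spp1, the secreted matrix protein osteopontin, had 0 UMIs in GFP-positive, 114 in GFP-negative and 882 in RA macrophages. In RA 2 barcodes held 449 and 398 of these UMIs, which is 96.0%, and the third held 17. In GFP-negative 2 barcodes held 64 and 27. Without the top 2 barcodes of each library the levels were 22.8 CPM in GFP-negative and 31.8 CPM in RA, a log2 ratio of -0.47 in place of -2.81. The RA barcode with 449 Spp1 UMIs also held 41 of Gpnmb, 38 of the lipase gene Lpl, 172 of the galectin gene Lgals3 and 47 of Cd9. The RA barcode with 398 held 6, 13, 44 and 43 of the same genes, and the GFP-negative barcode with 64 held 0, 6, 6 and 43. C1q stood at 287, 54 and 60 UMIs in those barcodes, and Mrc1 and Lyve1 were at 0 in all 3.

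Mmp12, the macrophage elastase, was at 45.6 CPM (24.9 to 76.5) in GFP-positive, 23.3 (14.9 to 34.6) in GFP-negative and 107 (89.2 to 128) in RA macrophages. The GFP-positive level rests on 10 and 4 UMIs in 2 barcodes. In RA 20 barcodes held it, with 47 and 24 UMIs at the top. The leading marker set of the barcode with 47 was dendritic, and that barcode also held 158 UMIs of H2-Aa and 483 of Cd74. In GFP-negative 14 barcodes held Mmp12, and none had more than 4 UMIs.

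Cd207 encodes langerin, the lectin of Langerhans cells of the skin. It was read in 0 of 22 GFP-positive, 23 of 105 GFP-negative and 42 of 101 RA macrophages. A count of 0 of 22, at 3 counts, allows up to 13.6% of macrophages with a UMI at this depth, which does not limit the share that express the gene. The levels were 0 CPM, 158 CPM (135 to 184) and 418 CPM (382 to 458). Against a floor of 3 UMIs in the GFP-positive library, GFP-positive was at least 42.8-fold lower than RA and at least 16.2-fold lower than GFP-negative. Unlike Spp1 it was spread over many barcodes: 18 RA macrophages held at least 10 UMIs, with 59, 36 and 35 in the highest. After thinning each barcode to 3000 UMIs it was read in 0%, 16.3% and 32.0% of macrophages. Outside the macrophages it was nearly absent from leukocytes, with 1 UMI in 180 barcodes. Of the other 10 genes of the dendritic list, Flt3, Xcr1, Clec9a, Cd209a and Itgae had 0 UMIs in the macrophages of every library, and Epcam, an adhesion molecule of Langerhans cells, had 2, 0 and 0. Irf8, a transcription factor of dendritic cells and macrophages, was read in 59.1%, 71.4% and 70.3% of macrophages. Ccr7 had 0, 21 and 12 UMIs, Cd24a 99, 8 and 29, and Zbtb46 1, 3 and 1, in the order of the libraries above.

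**Figure D2:**
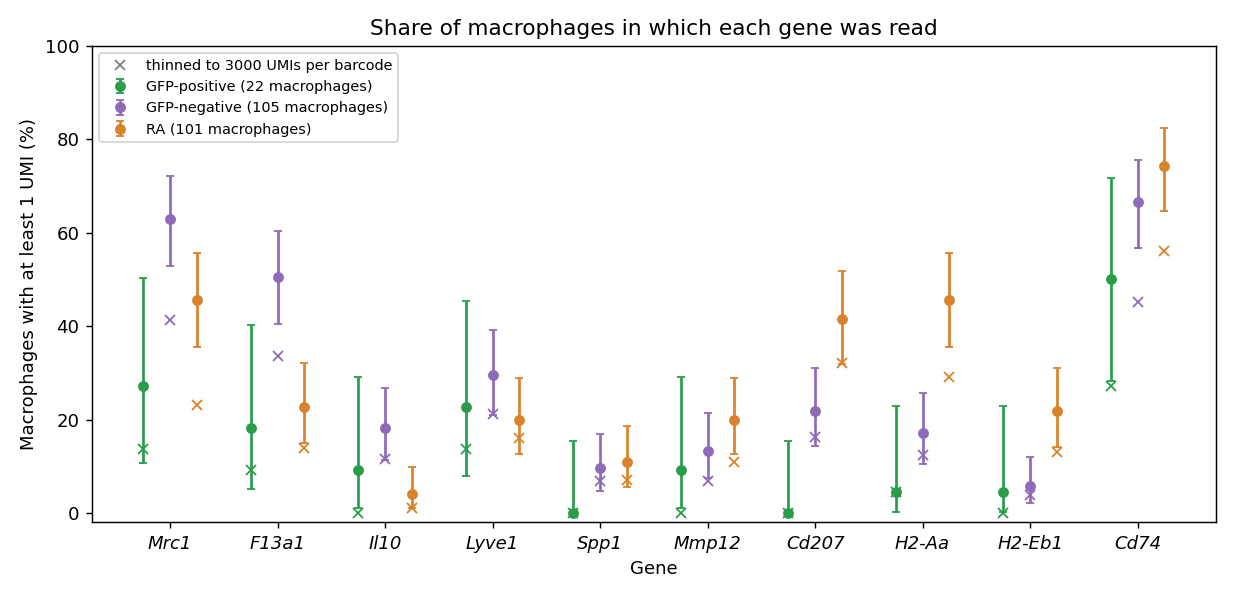
Share of macrophages with at least 1 UMI of each gene in the GFP-positive, GFP-negative and RA libraries. Points are all UMIs with 95% exact binomial intervals, and crosses are after thinning to 3000 UMIs. Mrc1 and F13a1 are highest in GFP-negative (62.9% and 50.5%), and Cd207 and H2-Aa in RA (41.6% and 45.5%).

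All 3 class II genes were highest in RA macrophages, and at the C1q gate of 20 UMIs they were lowest in GFP-positive. Cd74 was at 290 CPM (233 to 357) in GFP-positive, 1342 (1272 to 1415) in GFP-negative and 3412 (3306 to 3521) in RA macrophages, and was read in 11, 70 and 75 of them. H2-Aa was at 42.3 (22.5 to 72.4), 343 (308 to 381) and 1090.5 (1031 to 1153) CPM, and was read in 1, 18 and 46. With at least 2 UMIs asked for, H2-Aa was read in 1, 14 and 32. H2-Eb1 was at 3.26 (0.0824 to 18.1), 12.6 (6.71 to 21.6) and 314 (282 to 348) CPM, and was read in 1, 6 and 22. The 6 GFP-negative barcodes held 13 UMIs together, against 356 in RA, and the GFP-positive level rests on 1 UMI. Against GFP-negative the lower GFP-positive level rests on the gate. At 10 C1q UMIs the log2 ratio of GFP-positive over GFP-negative was 0.17 for H2-Aa in place of -2.97. It was -0.05 for H2-Eb1 in place of -1.42 and -0.73 for Cd74 in place of -2.20. Over RA the ratios of H2-Aa, H2-Eb1 and Cd74 at that gate were -1.51, -4.64 and -2.08. The looser gate adds 3 GFP-positive barcodes with 10 to 19 C1q UMIs. In 1 of them, whose leading marker set was dendritic, 13 C1q, 117 H2-Aa, 2 H2-Eb1 and 182 Cd74 UMIs were read. With 5 UMIs added to each sum the GFP-positive over GFP-negative ratio was 0.16 for H2-Eb1, whose interval (-7.36 to 0.78) spanned 0. GFP-negative macrophages were 2.54-fold lower than RA for Cd74, 3.18-fold for H2-Aa and 24.9-fold for H2-Eb1. These sums rest on few barcodes: the top 2 held 60.7% of H2-Aa in GFP-negative and 23.0% in RA. Without them the log2 ratio of H2-Aa was -2.67 in place of -1.67. For H2-Eb1 the top 2 held 69.2% in GFP-negative and 50.3% in RA, and without them the levels were 3.93 and 163 CPM. The RA barcode with 110 H2-Eb1 UMIs was led by dendritic markers, and also held the most H2-Aa (158) and Cd74 (483). The next, with 69, held 38.3% erythroid UMIs. Without barcodes over 1% erythroid markers the GFP-negative over RA log2 ratios of H2-Aa and Cd74 were -1.43 and -1.23.

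**Figure D3:**
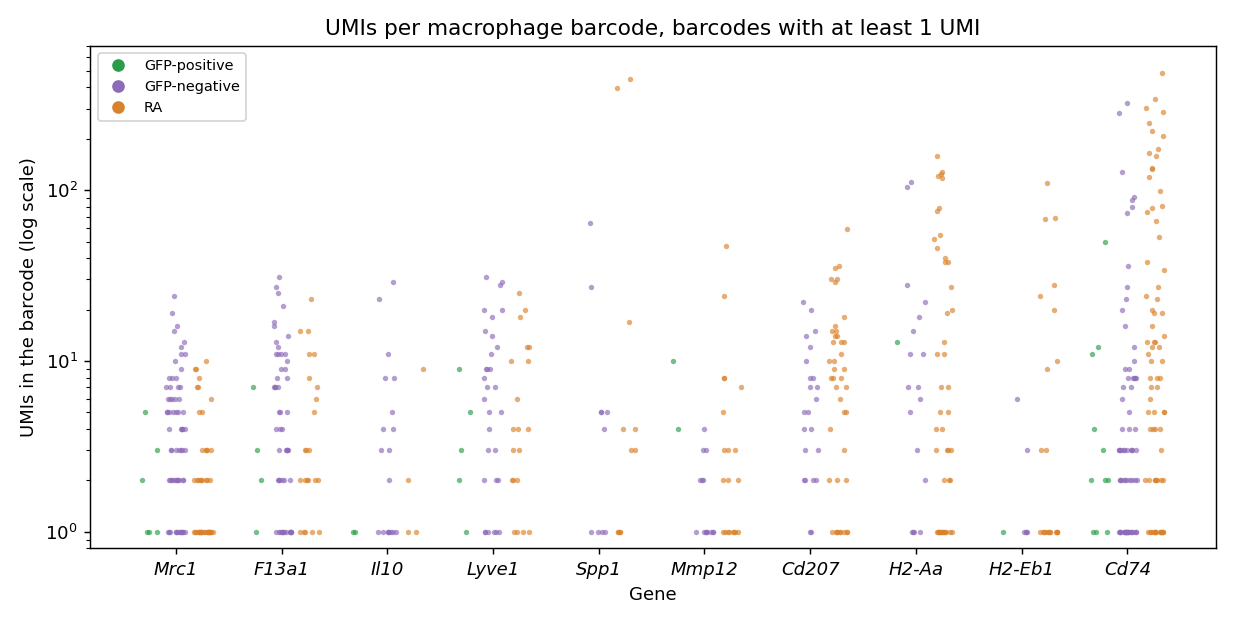
UMIs of each gene per macrophage barcode (log axis), 1 point per barcode with at least 1 UMI, by library from left to right GFP-positive, GFP-negative and RA. Spp1 in RA is 2 points at 449 and 398 far above the rest, while Cd207 and Cd74 form continuous columns.

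Each gene was then read against the whole transcriptome. For GFP-negative over RA, 5211 genes that reached 20 CPM in at least 1 of the libraries were compared, of which 5.07% were at least 2-fold higher and 2.78% at least 2-fold lower. All 10 genes passed 2-fold, 4 higher and 6 lower, and since they were picked on these levels nothing is read from that count. Without the erythroid-marked barcodes 3.67% of 5367 genes were higher and 4.17% lower, and 3 of the 10 genes were higher and 6 lower. For GFP-positive over GFP-negative, 10.7% of 5471 genes were higher and 11.8% lower. Of the 9 genes measured there 8 were lower, and Mmp12 (log2 ratio 0.99, interval -0.09 to 1.98) was neither. For GFP-positive over RA, 14.5% of 5378 genes were higher and 11.6% lower, and 8 of 9 genes were lower, Lyve1 being neither (-0.90, interval -1.69 to -0.25). With 5 UMIs added to each sum, Mrc1 (-0.93), F13a1 (-0.99) and Mmp12 (-0.85) did not pass 2-fold in that comparison, and neither did Mmp12 at a C1q gate of 10 UMIs (-0.91). The 3 comparisons share libraries and are not independent.

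Other genes of the same pathways were taken from lists of known genes, and counted where they reached 20 CPM in at least 1 of the libraries compared and 50 UMIs over all macrophages. Of 12 measured class II pathway genes, 6 were at least 2-fold lower in GFP-negative than in RA macrophages and none higher. Over all genes 2.78% were lower and 5.07% higher. The median log2 ratio was -1.06 against 0.08 over all genes. H2-Ab1, the beta chain of I-A, was at 48.8, 229 and 829 CPM in GFP-positive, GFP-negative and RA macrophages. H2-DMb1 and H2-DMb2, which help to load peptides, were also lower, beside H2-Aa, H2-Eb1 and Cd74 themselves. The last 3 were chosen on these levels and add no separate support to the count. The proteases Ctss (1065, 1855 and 2991 CPM) and Lgmn (400.5, 1744 and 1712 CPM) cut the invariant chain and proteins for presentation, and neither passed 2-fold between GFP-negative and RA. Ciita had 1 UMI in all 228 macrophages. Between GFP-positive and RA, 10 of 12 class II pathway genes were lower, with a median of -3.61 against 0.05 over all genes.

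Of 14 measured genes of the resident state, 9 were at least 2-fold higher in GFP-negative than in RA macrophages and 1 was lower, with a median of 1.10. Over all genes 5.07% were higher and 2.78% lower. The list includes Mrc1, F13a1 and Lyve1, which were chosen on these levels and add no separate support to the count. Without barcodes over 1% erythroid markers 6 were higher, where 3.67% of all genes were. The median was then 0.77, against -0.10 over all genes. Cbr2, a carbonyl reductase, was at 42.3, 116 and 18.5 CPM in GFP-positive, GFP-negative and RA macrophages. Ccl24, a chemokine for eosinophils, was at 553, 199.8 and 81.9 CPM, and Gas6, a bridge to dying cells, at 61.9, 214 and 79.3 CPM. Timd4, a receptor for phosphatidylserine on dying cells, was the one lower gene, at 567, 15.5 and 50.2 CPM. Of 12 matrix and lipid genes 4 were lower in GFP-negative than in RA and none was higher. They were Spp1 and Mmp12, chosen on these levels, and Gpnmb (3.26, 32.0 and 100.4 CPM) and Lgals3 (550, 156 and 430 CPM), which were high in the RA barcode with most Spp1, so the count is no separate support. Of 9 measured genes around IL-10 only Il10 itself passed 2-fold, while without the erythroid-marked barcodes 1 of 10 was higher and 1 lower, and Il1b stood at 280, 1793 and 1167 CPM. Of 10 immediate early genes, which dissociation can induce, 1 was higher, Dnajb1 at 127, 313 and 89.0 CPM, and the list's median was 0.35. None of 7 cell cycle genes passed 2-fold. Of 4 monocyte genes 1 was lower, Ms4a4c at 3.26, 18.4 and 50.2 CPM, and of 3 dendritic genes 2 were lower, Cd207 and Cd24a (322, 7.76 and 25.5 CPM).

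Several listed genes were more than 2-fold higher in GFP-positive macrophages than in both other libraries. Fcna, a soluble lectin of the ficolin family, was at 2240.0 CPM in GFP-positive, 89.2 in GFP-negative and 44.0 in RA macrophages. Timd4 was read in 86.4% of them, against 10.5% and 27.7%. Lyz2, the lysozyme of myeloid cells, stood at 14120 CPM, against 1608 and 2596. Fn1, the matrix protein fibronectin, stood at 2019 CPM, against 101 and 72.2, and the cytokine Il6 at 1019 CPM, against 9.70 and 18.5. Of 14 measured resident-state genes, with Fcna and Timd4 among them, 6 were at least 2-fold higher than in RA and 2 lower. Against GFP-negative 3 of the 14 were higher and 8 lower, where 10.7% of all genes were higher and 11.8% lower. Of 5 measured monocyte genes 3 were at least 2-fold higher than in RA and 2 lower, where 14.5% of all genes were higher and 11.6% lower. Of 12 matrix and lipid genes 7 were lower than in RA and none higher, and against GFP-negative 6 were lower and 2 higher, Lgals3 (3.52-fold) and Lpl (2.22-fold).

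Within single barcodes Mrc1, F13a1 and Lyve1 were read together. In GFP-negative all 31 macrophages with Lyve1 also held Mrc1, against 19.5 for independent genes, and 30 of the 31 held F13a1, against 15.6. In RA 18 of 20 macrophages with Lyve1 held Mrc1, against 9.11, and 16 held F13a1, against 4.55. Mrc1 with F13a1 was found in 49 barcodes in GFP-negative, against 33.3, and in 17 in RA, against 10.5. The log2 odds ratios of these 3 pairs ran from 4.48 to 6.13 in GFP-negative and from 2.18 to 5.19 in RA. After thinning to 3000 UMIs they ran from 3.21 to 5.16 and from 1.60 to 4.85, so each pair stayed positive at equal depth. All 3 genes were read in 2 GFP-positive, 30 GFP-negative and 14 RA macrophages.

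The class II genes formed the second group. H2-Aa came with Cd74 in 17 of 18 GFP-negative and 43 of 46 RA macrophages that held it. Pairs of a resident gene with H2-Aa were below the count for independent genes in both libraries. F13a1 with H2-Aa was found in 1 GFP-negative barcode, against 9.09 for independent genes, and in 6 RA barcodes, against 10.5. Lyve1 with H2-Aa was found in 1, against 5.31, and in 6, against 9.11. Mrc1 with H2-Aa was found in 5, against 11.3, and in 19, against 21.0. Cd74 in GFP-negative, at 1 UMI and full depth, came with Lyve1 in 24 barcodes, against 20.7. It came with F13a1 in 37, against 35.3, and with Mrc1 in 42, against 44.0. After thinning these counts were 9, 12 and 15, against 9.94, 15.8 and 19.4. With 2 UMIs of each gene asked for, they were 10, 15 and 20, against 11.7, 18.7 and 24.7. Under both settings they lay below the counts for independent genes, as for H2-Aa. In RA Cd74 came with Lyve1 in 10, against 14.9, with F13a1 in 12, against 17.1, and with Mrc1 in 30, against 34.2. With 2 UMIs of each gene asked for, F13a1 with H2-Aa was found in 0 barcodes, against 5.33, and in 2, against 5.70. Only 2 macrophages, both in RA, held Mrc1, F13a1 and Lyve1 together with H2-Aa and Cd74. A UMI of H2-Aa was read in 3.20% of GFP-negative and 10.8% of RA fibroblast-like barcodes, and a UMI of Cd74 in 8.39% and 25.4%. The part of free RNA in these joint counts was not tested.

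In RA 16 of 20 barcodes with Mmp12 held H2-Aa, against 9.11, 18 held Cd74, against 14.9, and 5 held H2-Eb1, against 4.36. Of these 20 barcodes 0 held Lyve1, against 3.96. In GFP-negative 4 of 14 held H2-Aa, against 2.40. The Mmp12 barcodes of RA were deeper, at a median of 11932 UMIs against 9396 in the rest. After thinning 6 RA barcodes held Mmp12 and H2-Aa, against 3.19. Spp1 with Mmp12 was found in 3 GFP-negative and 6 RA barcodes, against 1.33 and 2.18. Cd207 in RA came with Mrc1 in 25 barcodes, against 19.1, with H2-Aa in 22, against 19.1, with Lyve1 in 9, against 8.32, and with F13a1 in 8, against 9.56. After thinning, Cd207 and Mrc1 were found together in 12 RA barcodes, against 7.36. In GFP-negative it came with Mrc1 in 11, against 14.5, with H2-Aa in 4, against 3.94, with Lyve1 in 3, against 6.79, and with F13a1 in 7, against 11.6. Il10 was read with F13a1 in 9 GFP-negative barcodes, against 9.59. No member at all was read in 6 GFP-positive, 2 GFP-negative and 5 RA macrophages.

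**Figure D4:**
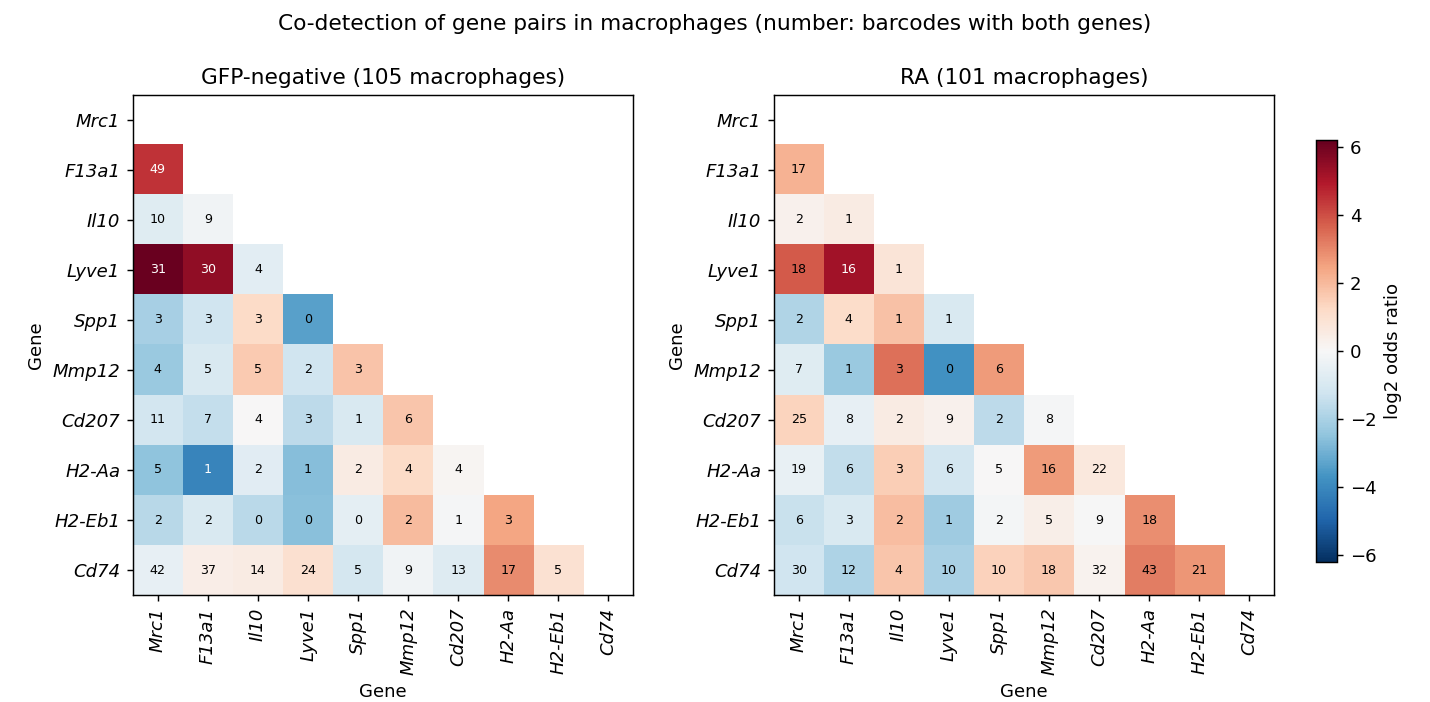
Co-detection of the 45 gene pairs in GFP-negative (left) and RA (right) macrophages. Colour is the log2 odds ratio and the number is the barcodes with both genes. The red block at Mrc1, F13a1 and Lyve1 (31 and 18 barcodes with Mrc1 and Lyve1) and the red corner of the class II genes (17 and 43 with H2-Aa and Cd74) are joined by mostly blue or pale cells.

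Splitting the macrophages by Lyve1 showed how far the other genes followed. In GFP-negative, F13a1 was at 854 CPM in the 31 barcodes with Lyve1 and 117 CPM in the 74 without, Pf4 (a platelet chemokine also made by macrophages) at 6883 and 1272 CPM, and Cbr2 at 326 and 18.5 CPM. H2-Aa was at 3.05 and 502 CPM in the same split. In RA, F13a1 was at 559 CPM in the 20 barcodes with Lyve1 and 26.2 CPM in the 81 without, Pf4 at 6782 and 560 CPM, and Cbr2 at 104 and 2.10 CPM. H2-Aa was at 54.8 and 1289 CPM there, and Ccr2, the receptor that marks cells recruited from blood, at 0 and 121 CPM. For F13a1, Pf4, Cbr2 and H2-Aa the split ran the same way in both libraries. The level of Ccr2 is given for RA only, and a GFP-negative barcode with 1 UMI of Lyve1 held 3 of Ccr2. F13a1, Pf4 and Cbr2 were among the genes most like Lyve1, F13a1 or Mrc1 in these same barcodes (below). The split of H2-Aa restates its joint counts with Lyve1 above, and both are members chosen on co-detection in these barcodes. The shared direction of all these genes is therefore no separate support. In GFP-negative, 2 barcodes without Lyve1 held 111 and 104 of the 354 H2-Aa UMIs. Median depths were 9750 UMIs with Lyve1 and 8570 without in GFP-negative, and 8540 and 9987 in RA.

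The genes most like each member were found by the correlation of log2(CPM/100 + 1) over barcodes, taken within GFP-negative (105 macrophages) and within RA (101). Of 6633 genes screened, 65 had a correlation of at least 0.3 with Lyve1 in both libraries, 56 with F13a1 and 50 with Mrc1, while H2-Aa had 8, Cd74 9, H2-Eb1 6, Spp1 8, Mmp12 2, Il10 1 and Cd207 0. Lyve1 was closest to Gas6 (0.70 in GFP-negative and 0.83 in RA) and Ccl24 (0.74 and 0.78). F13a1 was closest to Lyve1 (0.73 and 0.78), and Mrc1 to Pf4 (0.74 and 0.69). H2-Aa was closest to H2-Ab1 (0.95 and 0.94) and Cd74 (0.84 and 0.89). H2-Eb1 reached only 0.47 and 0.64 with H2-Aa. Spp1 stood nearest to Myof (0.38 and 0.63), Capg (0.51 and 0.49) and Lpl (0.37 and 0.62), and its correlations rest on few barcodes. Il10 had Cxcl1 alone (0.33 and 0.38), and Mmp12 had Napsa (0.33 and 0.32) and Arg2 (0.30 and 0.33). Barcodes of 1 library share their depth range and free RNA, and these values describe them only.

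H2-Eb1 did not follow H2-Aa barcode by barcode. Over all libraries 51 leukocyte barcodes held at least 10 H2-Aa UMIs. In 35 of them H2-Eb1 was under 20% of H2-Aa, with a median of 0.847%, in 13 it was at least 40%, with a median of 59.2%, and in 3 it lay between. Barcodes without any H2-Eb1 UMI numbered 15, and 1 of these held 112 UMIs of H2-Aa. H2-Ab1 and Cd74 did not divide in this way: H2-Ab1 had a median of 73.1% of H2-Aa in the 13 barcodes and 64.5% in the 35, and Cd74 had 281% and 274%. These ranges of the ratio were set after the values were seen.

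Both kinds of barcode occurred in each library. Among macrophages, H2-Eb1 was under 20% of H2-Aa in 1 of 1 GFP-positive, 8 of 8 GFP-negative and 11 of 19 RA barcodes, and at least 40% in 0, 0 and 7. Among other leukocytes it was under 20% in 3 of 5, 11 of 14 and 1 of 4, and at least 40% in 2, 2 and 2. The barcodes at 40% or more held 12 to 378 H2-Aa UMIs (median 125), and those under 20% held 11 to 349 (median 46). The ranges of H2-Aa overlap, but the median barcode at 40% or more held more H2-Aa. Median depths were 11700 and 9447 UMIs in the same order. RA macrophages over 1% erythroid markers lay in both ranges, such as those with 127 H2-Aa UMIs (at least 40%) and 121 (under 20%). In the barcodes outside both leukocyte classes, H2-Eb1 was 25.9% of H2-Aa in GFP-positive, 80.0% in GFP-negative and 59.5% in RA, on 513, 120 and 131 UMIs of H2-Aa.

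**Figure D5:**
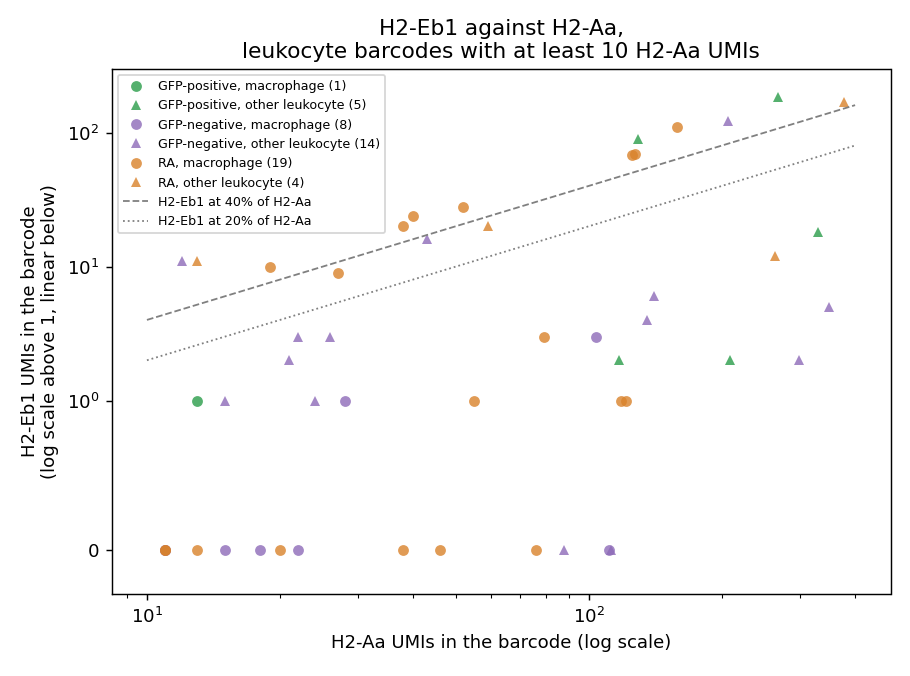
H2-Eb1 UMIs against H2-Aa UMIs in the 51 leukocyte barcodes with at least 10 H2-Aa UMIs, by library (colour) and class (circle or triangle). Lines mark H2-Eb1 at 40% and 20% of H2-Aa: 13 barcodes lie on or above the upper line, 35 below the lower line and 3 between.

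Other leukocytes, gated on 5 pan-leukocyte genes with under 20 C1q UMIs, numbered 12 in GFP-positive, 135 in GFP-negative and 33 in RA. They carried class II transcripts but little of the macrophage state genes. H2-Aa was at 7006, 1368 and 2472 CPM for GFP-positive, GFP-negative and RA, and it was read in 6, 23 and 7 barcodes. Cd74 was at 14542, 2836 and 4124 CPM, and H2-Eb1 at 1960 CPM, 164 and 732. Single barcodes again carried the sums. In GFP-positive 5 barcodes whose leading marker set was dendritic held 1051 of 1058 H2-Aa UMIs. In GFP-negative 6 barcodes whose leading set was monocyte held 1030 and 7 whose leading set was B held 163 of 1508. In RA 2 monocyte-led barcodes held 437 and 1 with no leading set held 264 of 723.

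Of the state genes, F13a1 was read in 12 of 180 other leukocytes over all libraries, 8 of them among 78 monocyte-led barcodes, with at most 3 UMIs in a barcode of that set. Mrc1 was read in 8, Spp1 in 7, Mmp12 in 3, Lyve1 in 2 and Cd207 in 1 of the 180. At 5.44 CPM in GFP-negative and 3.42 CPM in RA, Mrc1 in other leukocytes lay near its level in endothelial-like barcodes other than endocardial and lymphatic (10.7 and 10.3 CPM). T and innate lymphoid-led barcodes, 45 in all, held 7 UMIs of H2-Aa, and mast-led barcodes, 5 in all, held none of H2-Aa, H2-Eb1 or Cd74.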

How the data were processed

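From postnatal day 2 hearts 3 libraries were used, 1 per group. The deposited matrices hold raw UMI counts per gene and barcode, made with Cell Ranger (version not given in the sources used here) on the mm9 build, per the submitters' processing notes. A barcode was kept if it held 500 genes or more and no more than 50% of its UMIs were mitochondrial, and doublets were not called. Other leukocytes had at least 5 UMIs over at least 3 of Ptprc, Coro1a, Laptm5, Cd53 and Rac2, and other classes came from marker gates set after values were seen. Counts were summed over the macrophages of a library and scaled to CPM. Intervals are 95%: exact Poisson for levels, Clopper-Pearson for shares and exact conditional binomial for ratios, which had 0.5 UMIs added to each sum. Expected joint counts are products of the 2 shares, and log2 odds had 0.5 added to each cell. Named were the 10 genes, up to 4 genes a list with the highest level or past 2-fold between GFP-negative and RA, and up to 3 genes most like each member; other named genes were chosen after their values were seen. The members and lists were chosen with earlier results of these data known. Scripts ran in Python 3.11.15 with numpy 2.4.6, scipy 1.17.1 and pandas 2.3.3 and were tested on simulated data.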

Additional observations from a re-analysis of the deposited data

How the results depend on the processing

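Alternatives changed the C1q gate, the barcode filter, the UMIs added, the scaling, the depth and the UMIs needed for detection. Leaving out the 2 barcodes with most UMIs of a gene, or macrophages over 1% erythroid markers, was chosen after seeing the data. Of the log2 ratios, 236 moved by less than their counting interval, 32 moved further and 2 reversed. Without erythroid-marked barcodes the log2 ratio of GFP-negative over RA was 1.25 for Mrc1, 1.31 for F13a1, 4.38 for Il10, 0.74 for Lyve1, -3.15 for Spp1, -1.43 for H2-Aa and -1.23 for Cd74. Without the top 2 barcodes it was 4.64 for Il10, -0.47 for Spp1, -1.43 for Mmp12, -2.67 for H2-Aa and -1.87 for Cd74. For GFP-positive over GFP-negative, H2-Aa was at 0.17 with a C1q gate of 10 UMIs, in place of -2.97. That gate takes in a GFP-positive barcode, led by dendritic markers, with 117 UMIs of H2-Aa, against 13 in all 22 macrophages. H2-Eb1 was at 0.16 with 5 UMIs added, in place of -1.42, where the GFP-positive sum was 1 UMI. The causes were not tested. No paired analysis was possible because each group is 1 library and no test was made. The GFP-positive values rest on 22 macrophages, and that number limits their precision.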
